A study of Sus scrofa with 3 samples.

Results

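The miR-15/16 family comprises microRNAs (miRNAs) that share a seed, the short stretch near the 5′ end that pairs with target mRNAs. The entries ssc-miR-15a, ssc-miR-15b, ssc-miR-16, ssc-miR-195, ssc-miR-497 and ssc-miR-424-5p were taken by name with all their precursors, and the prefix for Sus scrofa is left out from here on. They are 6 of the 405 mature miRNAs listed once repeated names were left out, and they fill 7 rows because miR-16 has 2 precursors. All 6 lay above the minimum of a mean of 10 counts per 1000000 reads of a library (CPM), which 208 miRNAs passed. Small RNA was sequenced from liver taken from male animals on postnatal day 90. There is 1 library of each breed: the Enshi black pig (a domestic breed of China), the Large White pig (a commercial breed of European origin) and the Chinese wild boar. Where 3 values follow each other they are in this order. No treatment or genetic change is given for any of them. The labels mention 3 male pigs in all and do not say whether a library pools animals. No difference between breeds could be set against replicates, and the intervals given are exact 95% intervals that cover counting error alone.

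miRNAs of this family hold back the cell cycle by repressing cyclins D and E, their partner kinases and checkpoint kinases, and they promote cell death by repressing the survival protein BCL2. The gene pair of miR-15a and miR-16 was first known as a tumour suppressor that is lost in chronic lymphocytic leukaemia. In heart and other organs family members rise after birth as cells leave the cell cycle, and in liver miR-195 and miR-497 are known for their reduced level in hepatocellular carcinoma. Members are made from several primary transcripts, so the same seed is supplied by several genes.

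In the RefSeq annotation of Sscrofa11.1, a later build than that of the deposited counts, MIR15A on chromosome 11 has a miR-16 gene within 10 kb. MIR15B on chromosome 13 has the other one, and both of these lie within SMC4, a subunit gene of condensin. MIR195 and MIR497 are neighbours on chromosome 12. miR-424 is known to be made with miR-503, miR-542 and the miR-450 miRNAs from an X-linked cluster, and of these MIR450A, MIR450B, MIR450C and MIR542 were found side by side on chromosome X. Positions of MIR424 and MIR503 were not used here. The mature sequence of miR-16 is the same from both of its genes.

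The summed rows of the libraries, after repeated names were left out, gave totals of 7730944, 7343045 and 7824848 reads. The liver-specific miR-122 had 2644501, 3040156 and 3090486 of them. The family held 112739 reads in the Enshi black library, which is 1.46% of its total (1.450 to 1.467). In the Large White library it held 57864 reads or 0.788% (0.782 to 0.794), and in the wild boar library 98186 reads or 1.25% (1.247 to 1.263).

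To compare libraries, CPM were scaled by trimmed mean of M-values (TMM), which assumes that most miRNAs do not differ. On that scale the family sum was 12136 CPM in the Enshi black, 10202 CPM in the Large White and 11646 CPM in the wild boar library. The sum was thus nearly level, although single members were not. Enshi black over Large White had a log2 ratio of 0.25 for the sum (0.24 to 0.26), wild boar over Large White 0.19 (0.18 to 0.21) and Enshi black over wild boar 0.06 (0.05 to 0.07). On library totals without TMM the log2 ratios of the sum were 0.89, 0.67 and 0.22. The median of all 208 miRNAs moved in the same way, from −0.04 to 0.60, from −0.02 to 0.46 and from −0.01 to 0.15.

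Read counts of members ran from 2121 for miR-15b in the Large White to 45805 for miR-16 in the Enshi black library. miR-16, the most abundant member, stood at 4931 CPM in the Enshi black, 3319 CPM in the Large White and 4249 CPM in the wild boar library. It was the member with the highest read count in each library, at rank 29, 35 and 30 of all miRNAs. miR-424-5p, known from differentiating blood and vessel cells, stood at 3055 CPM, 3050.05 CPM and 2822 CPM. Its level differed by less than 10% between any pair of libraries on this scale, with ratios of 1.002 for Enshi black over Large White (0.983 to 1.021), 0.925 for wild boar over Large White (0.907 to 0.944) and 1.08 for Enshi black over wild boar (1.064 to 1.102). On library totals its log2 ratios were 0.64, 0.37 and 0.27 for these pairs, so its even level rests on the scaling. miR-195, a member studied for its part in the cell cycle exit of heart muscle, stood at 1433 CPM, 1359 CPM and 1721 CPM and was highest in the wild boar.

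miR-15a and miR-15b, which differ in a few bases outside the seed, went different ways. miR-15a stood at 1403 CPM in the Enshi black, 1594 CPM in the Large White and 1054 CPM in the wild boar library, so it was highest in the Large White. miR-15b stood at 903 CPM in the Enshi black, 374 CPM in the Large White and 942 CPM in the wild boar library, so the Large White was far below both others. miR-497, the partner of miR-195, stood at 411 CPM, 507 CPM and 858 CPM, and the wild boar was above both domestic breeds. On library totals miR-15a was instead highest in the Enshi black library, at 1686 CPM against 1231 CPM and 1136 CPM, while the order of the libraries for miR-497 became wild boar, Enshi black, Large White at 924 CPM, 494 CPM and 391 CPM.

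**Figure D1:**
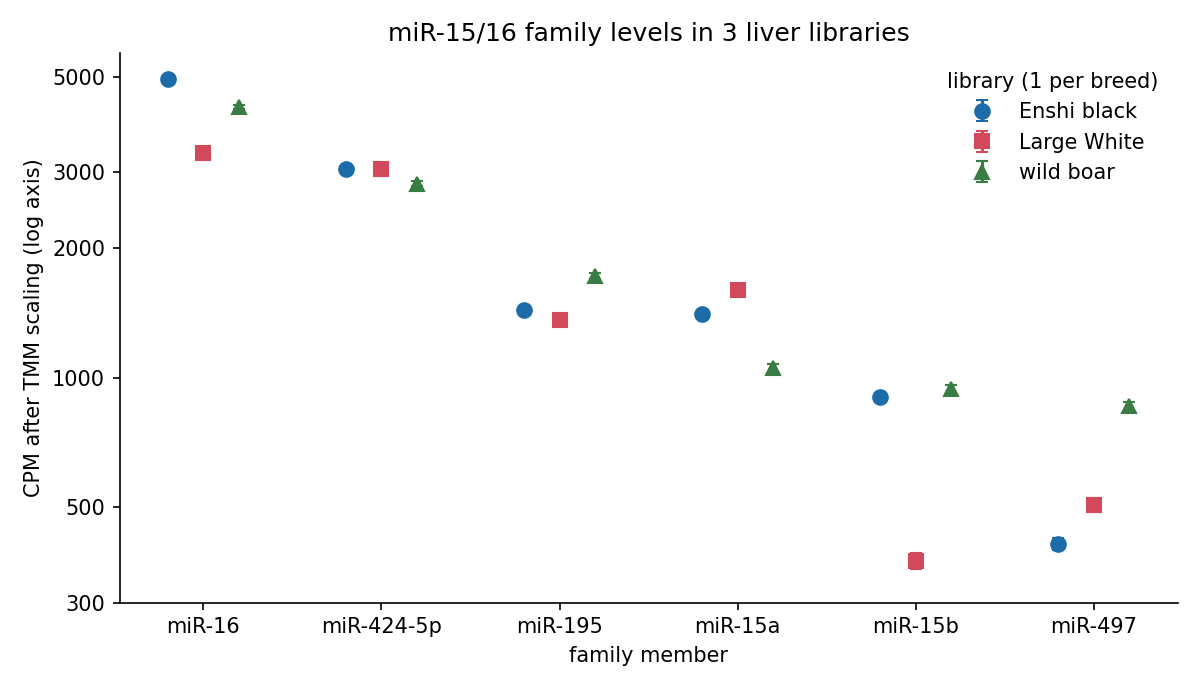
Level of each member (x axis) in CPM after TMM scaling (y axis, log scale) in the 3 liver libraries, with exact 95% intervals for counting error. With this scaling miR-424-5p is nearly level at 2822 to 3055 CPM, miR-15b in the Large White library (374 CPM) lies far below the other two libraries, and miR-497 is highest in the wild boar (858 CPM).

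A miRNA was counted as higher or lower in a library where its ratio reached 2-fold and the interval of that ratio did not include 1. For Enshi black over Large White, 1 of the 6 members was higher and 0 were lower, against 2.88% of all 208 miRNAs higher and 10.1% lower. That member was miR-15b, at 2.42-fold (2.30 to 2.53), and it ranked 4 of 208 from the highest ratio. The members' median log2 ratio was 0.04 against −0.04 over all miRNAs, with a range from −0.30 for miR-497 to 1.27 for miR-15b. miR-16 had 0.57 and miR-15a −0.18. On library totals miR-16 passed 2-fold as well, at 1.21, where 27.4% of all miRNAs were higher and 2.88% lower, and so it did on totals without miR-122, at 1.04 with 17.8% higher. On library totals miR-15a and miR-497 turned to 0.45 and 0.34, and without miR-122 to 0.29 and 0.17, so their direction in this pair depends on the scaling.

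For wild boar over Large White, 1 of 6 members was higher and 0 were lower, against 11.5% and 13.5% of all miRNAs. It was again miR-15b, at 2.52-fold (2.40 to 2.64) and rank 10 of 208. Both pairs use the same Large White library, so they are not independent. The members' median log2 ratio was 0.35 against −0.02 over all miRNAs. miR-497 had 0.76 and rank 33, miR-16 0.36, miR-195 0.34, miR-424-5p −0.11 and miR-15a −0.60. On library totals miR-497 passed 2-fold at 1.24, where 21.6% of all miRNAs were higher and 9.13% lower. It did so as well on totals without miR-122, at 1.19 with 20.7% higher. On library totals miR-424-5p turned to 0.37 and miR-15a had −0.12.

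For Enshi black over wild boar, 0 members were higher and 1 of 6 was lower, against 6.25% of all miRNAs in each direction. miR-497 was 2.09-fold lower in the Enshi black library (2.01 to 2.17), at rank 198 of 208. The members' median log2 ratio was 0.03 against −0.01 over all miRNAs. The remaining members lay between −0.26 for miR-195 and 0.41 for miR-15a. On library totals 7.21% of all miRNAs were higher and 3.37% lower, and miR-497 was under 2-fold at −0.90, so the call rests on the scaling while the direction does not. miR-15b had −0.06, which was 0.10 on library totals.

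**Figure D2:**
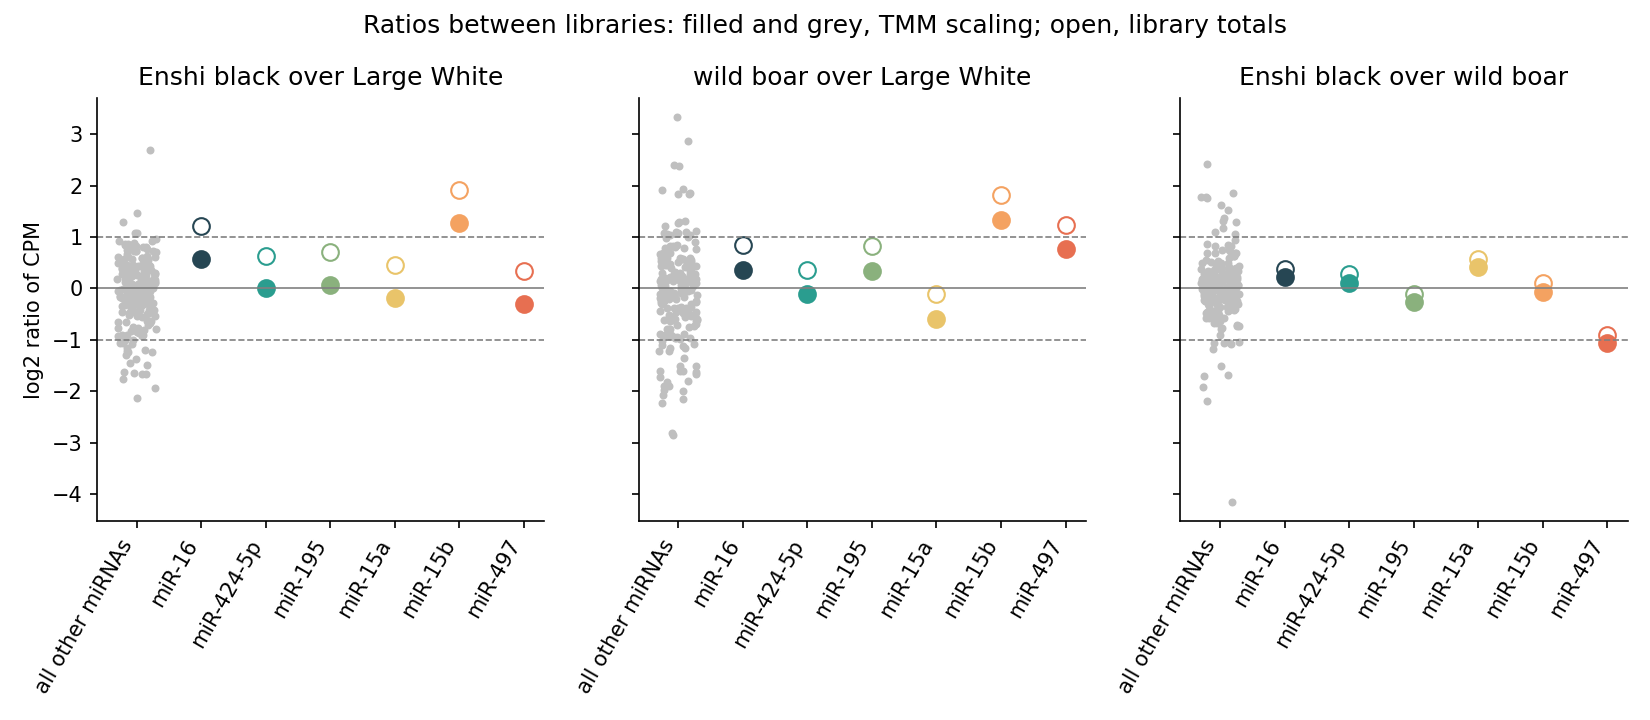
Log2 ratios of CPM between each pair of libraries (y axis) for the 6 members (filled, TMM scaling; open, library totals) and for all other miRNAs with a mean of at least 10 CPM (grey, TMM scaling), with dashed lines at 2-fold. With TMM, miR-15b lies above the upper line over the Large White in both pairs (1.27 and 1.33), and miR-497 lies just under the lower line for Enshi black over wild boar (−1.06).

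Shares within the family need no scaling between libraries. A read of a small RNA covers the whole miRNA, so reads were not divided by length. Adaptors are ligated with unequal efficiency to different sequences, so the order of members within a library is one of reads. miR-16 held 40.6% of the family's reads in the Enshi black (40.3 to 40.9), 32.5% in the Large White (32.1 to 32.9) and 36.5% for the wild boar (36.2 to 36.8). miR-424-5p held 25.2%, 29.9% and 24.2%, and miR-195 11.8%, 13.3% and 14.8%. These members therefore made up most of the family in each library.

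The other members changed places. miR-15a held 11.6% of the family's reads in the Enshi black (11.4 to 11.7), 15.6% in the Large White (15.3 to 15.9) and 9.05% for the wild boar (8.88 to 9.24). miR-15b held 7.44% in the Enshi black (7.29 to 7.60), 3.67% in the Large White (3.51 to 3.82) and 8.09% for the wild boar (7.92 to 8.26). miR-497 held 3.39% in the Enshi black (3.28 to 3.49), 4.97% in the Large White (4.79 to 5.15) and 7.36% for the wild boar (7.20 to 7.53). By reads miR-15b was the fifth member in the Enshi black and wild boar libraries and the last in the Large White. miR-15a was the third in the Large White and the fourth in the others, where miR-195 was ahead of it.

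**Figure D3:**
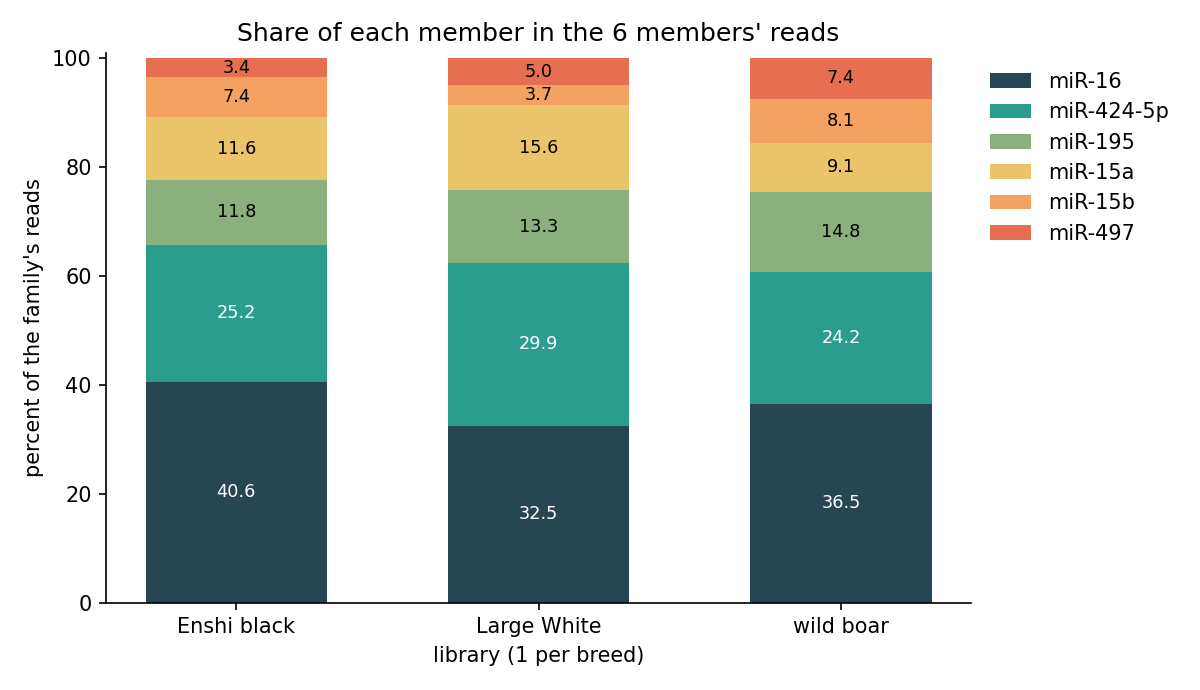
Share of each member in the 6 members' reads (y axis, percent, from 0) in each library. miR-16 and miR-424-5p fill most of each bar, miR-15a is widest in the Large White (15.6%), miR-15b is narrowest there (3.67%), and miR-497 is widest in the wild boar (7.36%).

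The balance of miR-15b to miR-15a differed most between the libraries among the members' ratios given here. There were 0.644 miR-15b reads per miR-15a read in the Enshi black library (0.626 to 0.662). The ratio was 0.235 in the Large White (0.224 to 0.246) and 0.893 in the wild boar (0.867 to 0.921). Against the Large White, the ratio was 2.74 times higher in the Enshi black (2.60 to 2.90) and 3.81 times higher in the wild boar library (3.60 to 4.03). Between the Enshi black and the wild boar it was 1.39 times higher in the wild boar (1.33 to 1.45). The deposited rows of miR-15a and miR-15b end in 0.5 in the Enshi black and Large White libraries, so some reads were divided between names. How many were divided cannot be read from the fractions.

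miR-16 is the mate of both, and its reads could not be assigned to one of its genes. The deposited counts were 22816.33 for mir-16-1 and 22988.33 for mir-16-2 in the Enshi black library, 9403.33 and 9419.33 in the Large White, and 17857.5 and 17966.5 in the wild boar. The rows differed by only 172, 16 and 109 reads, which is 0.376%, 0.085% and 0.304% of the miR-16 reads. The rows were thus split almost equally in each library and do not separate what each gene supplies. The RefSeq table also gives both precursor names as synonyms of each miR-16 gene. The balance with miR-16 is therefore given first on sums.

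Set against all miR-16, miR-15a and miR-15b together gave 0.468 reads per miR-16 read in the Enshi black (0.460 to 0.475), 0.593 in the Large White (0.579 to 0.607) and 0.470 for the wild boar (0.461 to 0.478). The Enshi black and wild boar libraries were within counting error of each other, with a ratio of these ratios of 0.996 (0.971 to 1.020). The Large White was 1.27 times above the Enshi black (1.23 to 1.30) and 1.26 times above the wild boar (1.22 to 1.30). The sum hid opposite moves of its parts. miR-15a alone gave 0.285, 0.480 and 0.248 reads per miR-16 read, highest in the Large White, while miR-15b alone gave 0.183, 0.113 and 0.222, lowest in the Large White. Per precursor row as deposited, miR-15a had 0.571, 0.961 and 0.498 reads per read of mir-16-1, and miR-15b 0.365, 0.225 and 0.442 per read of mir-16-2.

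miR-497 and miR-195 come from 1 transcript and are read at unequal levels. There were 0.287 miR-497 reads per miR-195 read in the Enshi black library (0.277 to 0.297), 0.373 in the Large White (0.357 to 0.389) and 0.498 in the wild boar (0.484 to 0.513). Their intervals did not overlap in any pair. The ratio was 1.74 times higher in the wild boar than in the Enshi black library (1.66 to 1.82) and 1.34 times higher than in the Large White (1.27 to 1.41). The Large White was 1.30 times above the Enshi black (1.23 to 1.37). The deposited row of miR-195 ends in 0.33 in the Enshi black and Large White libraries. Some of its reads were thus divided between names too, and how many is not known.

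**Figure D4:**
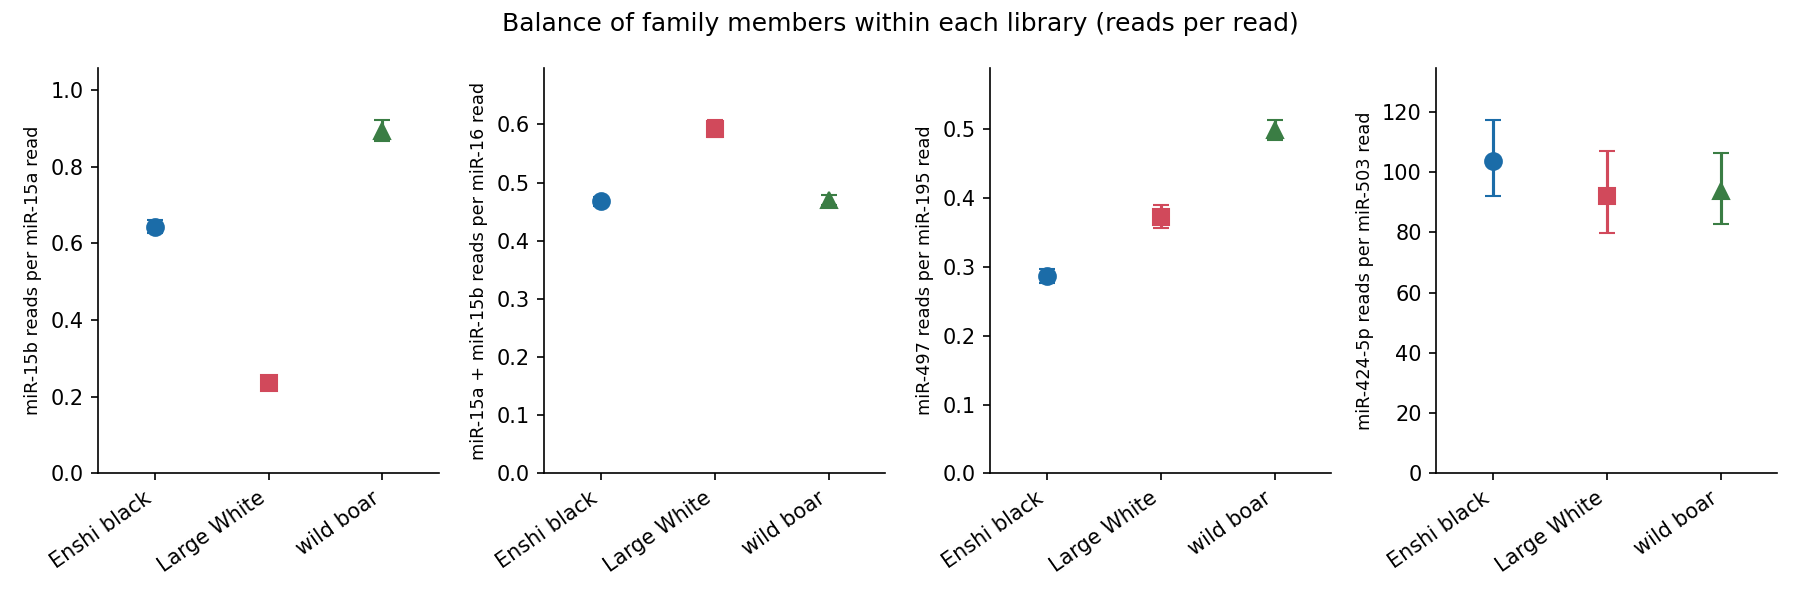
Reads of one member per read of another within each library (y axes, from 0), with exact 95% intervals for counting error. miR-15b per miR-15a is lowest in the Large White (0.235), miR-497 per miR-195 is highest in the wild boar (0.498), and miR-424-5p per miR-503 overlaps in all 3 libraries (92.0 to 104).

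Other neighbouring miRNA genes give a scale for such a difference. In the RefSeq table, 19 pairs of adjacent miRNA genes from other clusters, within 10 kb, each from its only precursor and with a mean of at least 10 CPM, could be set beside miR-195 and miR-497. The 3 such pairs within the miR-424 cluster, among miR-450a, miR-450b-5p, miR-450c-5p and miR-542-3p, were not counted among the 19 and lay 0.10 to 1.58 apart over the pairs of libraries. The table gives no strand. In Enshi black over wild boar, miR-195 and miR-497 lay 0.80 apart in log2 ratio, more than 18 of the 19 other pairs, whose median was 0.31. In Enshi black over Large White they lay 0.38 apart, more than 13 of the 19, against a median of 0.31. In wild boar over Large White they lay 0.42 apart, more than 8 of the 19, against a median of 0.48. Neighbours of other clusters thus also parted in these libraries, by up to 2.26.

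**Figure D5:**
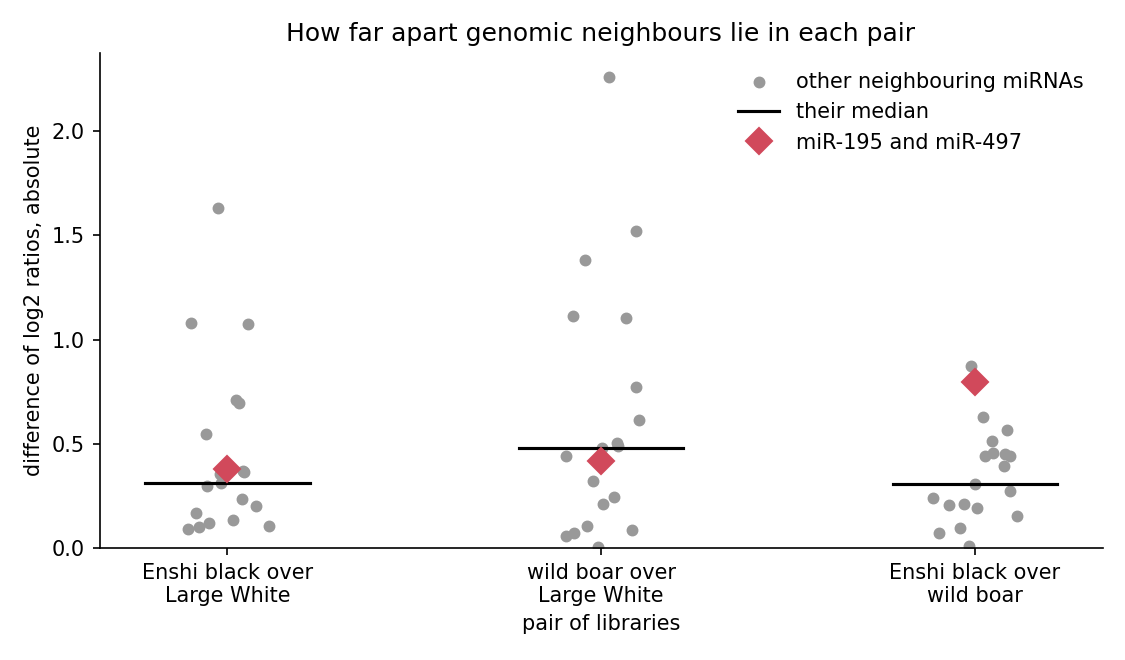
Absolute difference between the log2 ratios of 2 neighbouring miRNAs (y axis) in each pair of libraries, for 19 pairs of other clusters (grey, with their median as a line) and for miR-195 and miR-497 (diamond). Over the Large White library, the diamond lies above 13 of 19 for Enshi black (0.38) and 8 of 19 for wild boar (0.42). In Enshi black over wild boar it lies above 18 of 19 (0.80).

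The miR-424 cluster showed a steadier balance for some of its members. miR-503, whose seed is close to that of the family and which also represses cyclins, had 274, 188 and 254 reads. There were 104 miR-424-5p reads per miR-503 read in the Enshi black (92.0 to 117), 92.0 in the Large White (79.7 to 107) and 93.7 for the wild boar (82.8 to 106). The ratio of these ratios was 1.13 for Enshi black over Large White (0.929 to 1.36), 1.02 for wild boar over Large White (0.838 to 1.24) and 1.11 for Enshi black over wild boar (0.928 to 1.32). All of these intervals include 1, so no difference was detectable at this depth. The ratio of miR-424-5p to miR-450a was 88.4, 87.4 and 92.6 in the same order, and that to miR-450c-5p 63.8, 70.3 and 62.3, each with intervals that overlapped between libraries.

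Further mates in that cluster did not keep step. There were 40.4 miR-424-5p reads per miR-450b-5p read in the Enshi black library (37.5 to 43.6), 25.8 in the Large White (23.9 to 27.9) and 34.5 in the wild boar (32.0 to 37.2). miR-542-3p stood at 502 CPM in the Enshi black, 953 CPM in the Large White and 333 CPM in the wild boar library, and its other arm miR-542-5p at 223 CPM, 150.2 CPM and 320 CPM. The arms thus ran in opposite order, and miR-542-5p made up 30.8% of the reads of its precursor in the Enshi black (29.7 to 31.9), 13.6% in the Large White (12.8 to 14.5) and 49.0% for the wild boar (47.7 to 50.3). Of 8 listed mates 6 passed the expression minimum. In wild boar over Large White 1 of the 6, miR-542-5p, was higher and 1, miR-542-3p, lower, against 11.5% and 13.5% of all miRNAs. In Enshi black over Large White 0 of the 6 passed 2-fold with TMM scaling, against 2.88% of all miRNAs higher and 10.1% lower. In Enshi black over wild boar 0 of the 6 passed, against 6.25% in each direction. On library totals miR-542-5p was also higher in Enshi black over Large White, at 1.21 on the log2 scale, where 27.4% of all miRNAs were higher.

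For the family's own precursors both arms were listed only for mir-424. miR-424-5p made up 99.7% of its reads in the Enshi black library (99.63 to 99.76), 99.8% in the Large White (99.75 to 99.88) and 99.6% in the wild boar (99.51 to 99.67). The other arm, miR-424-3p, rested on 86, 30 and 96 reads and lay under the expression minimum.

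miR-103 and miR-107 belong to the wider miR-15/107 group, in which the core of the seed starts 1 base earlier, and they are known as regulators of insulin sensitivity in liver. miR-103 stood at 6025 CPM, 5664 CPM and 6241 CPM, above every member of the family. miR-107 stood at 867 CPM, 959 CPM and 1440.0 CPM and, like miR-497, was highest in the wild boar. Its reads per miR-103 read were 0.144 (0.141 to 0.147), 0.169 (0.165 to 0.174) and 0.231 (0.226 to 0.235). Neither passed 2-fold in any pair with TMM scaling, and on library totals miR-107 did so in wild boar over Large White at 1.07 on the log2 scale, where 21.6% of all miRNAs were higher.

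Among other miRNAs known to hold back the cell cycle, such as let-7, miR-26a and miR-34a, 11 of 12 in the list were named in the files and 10 passed the expression minimum. None of these 10 passed 2-fold in any pair with TMM scaling. Their median log2 ratio was −0.37 for Enshi black over Large White, 0.01 for wild boar over Large White and 0.01 for Enshi black over wild boar. With totals in place of TMM the medians became 0.27, 0.49 and 0.17, and miR-143-3p was then higher in Enshi black over Large White at 1.07, against 27.4% of all miRNAs. Of 13 miRNAs known to favour proliferation, such as the miR-17-92 cluster, miR-21 and the pair miR-221 and miR-222, 11 were named and 10 passed the minimum.

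In wild boar over Large White 1 of these 10, miR-222, was higher at 1.01, and 3 were lower, namely miR-19a at −1.60, miR-21 at −1.17 and miR-20b at −1.09, against 11.5% of all miRNAs higher and 13.5% lower. In Enshi black over wild boar 1 of the 10, miR-20b, was higher at 1.62, against 6.25%. In Enshi black over Large White 0 passed in either direction, against 2.88% higher and 10.1% lower. The medians were −0.29, 0.27 and 0.17 in these 3 pairs, each beside an all-miRNA median within 0.04 of 0. On library totals miR-92a and miR-221-3p were also higher in wild boar over Large White, where 21.6% of all miRNAs were higher, while miR-21 and miR-20b were under 2-fold there. In Enshi black over Large White miR-17-5p, miR-20b and miR-222 were then higher, against 27.4% of all miRNAs. The medians on library totals were 0.19, 0.42 and 0.81 in the same 3 pairs, so that of wild boar over Large White changed sign.

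The profile of each member over the 3 libraries was set beside those of all other miRNAs with a mean of at least 100 CPM, as the largest difference of log2 CPM centred on each miRNA's mean. This describes only 3 libraries and was not tested. For the family sum the nearest were miR-214, miR-24-3p, let-7d-5p, miR-181c and miR-532-5p, at 0.02 to 0.05. Nearest to miR-16 was miR-100 (0.04), to miR-195 miR-30b-5p (0.03) and to miR-15a the red cell miRNA miR-451 (0.04), while miR-199a-3p was nearest to miR-424-5p. miR-15b and miR-497 had no such close match, with miR-505 at 0.20 and miR-339 at 0.15. Between fellow members the differences ran from 0.26 between miR-15a and miR-424-5p to 1.13 between miR-15a and miR-15b. These cannot be weighed against the nearest matches, since each match was picked as the closest of 124 miRNAs.

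Bulk liver holds several cell types, and fewer cells of a type cannot be told apart from less RNA per cell. Endothelial miR-126-3p and miR-126-5p summed to 16284 CPM in the Enshi black, 10079.9 CPM in the Large White and 12169 CPM in the wild boar library, the same order as miR-16. The 4 smooth muscle and stellate cell miRNAs (miR-143-3p, miR-145-5p, miR-199a-5p and miR-214) kept that order too, with sums of 42462 CPM, 31562 CPM and 34011 CPM. The 3 red cell miRNAs (miR-451, miR-144 and miR-486) summed to 4114 CPM, 5324 CPM and 3114 CPM, which is the order of miR-15a, and miR-16 itself is abundant in red cells. The leucocyte miRNAs, 4 of 5 listed, summed to 10708 CPM, 20629 CPM and 3582 CPM, in that order as well. Single markers departed from the order of their sums. miR-486 stood at 132 CPM, 147 CPM and 145 CPM, and miR-150 at 314 CPM, 278 CPM and 91.0 CPM. Without TMM the red cell sum was 4944 CPM, 4112 CPM and 3356 CPM, again in the order of miR-15a. miR-451 made up 30821 of its 38221 reads in the Enshi black library. On those totals miR-144 was highest in the Large White, and miR-486 was lowest there. The leucocyte sum on totals was 12867 CPM, 15934 CPM and 3859 CPM, no longer in the order of miR-15a. It stayed highest in the Large White, where miR-142-3p made up 95697 of its 117004 reads. The ratios of miR-142-5p, miR-150 and miR-155-5p were 1.06, 1.76 and 1.01 for Enshi black over Large White on totals. The 4 hepatocyte miRNAs summed to 341596 CPM, 657123 CPM and 439701 CPM. The 4 striated muscle miRNAs summed to 77.3 CPM, 137 CPM and 44.7 CPM, with miR-208b at 0 in each library. With TMM scaling this too is the order of miR-15a. On totals the striated muscle sum was 92.9 CPM, 106 CPM and 48.2 CPM, which is not. With so few libraries only a few orders are possible, so a shared order alone carries little weight. The part of these cell types in the family's differences was not tested.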

How the data were processed

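Each deposited table lists mature miRNAs by precursor with their read count, per the file headers. They are expected counts as deposited, since reads that match several names are divided. The deposited RPM equal these counts divided by the sum of all rows, times 1000000, and were not used. The submitters' processing notes name the build Sscrofa 10.2. What aligned and counted the reads is not given in the sources used here. Per the labels' protocols, small RNA was gel-selected, ligated, amplified and sequenced single-end, without molecular identifiers.

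Rows of 6 names that repeat another name's reads were left out, counts were summed over precursors and rounded, and CPM were scaled by TMM (edgeR 4.0.16, R 4.3.3). The TMM factors were 1.20 (Enshi black), 0.772 (Large White) and 1.08 (wild boar). The expression minimum was a mean of 10 CPM of the library total. Ratios between libraries have exact conditional-binomial intervals, shares have Clopper-Pearson intervals, and ratios of ratios have conditional odds-ratio intervals (scipy 1.17.1). Whole-number counts had been assumed in planning. The ratio procedure was tested on simulated counts with known folds, counting error alone and no TMM scaling. That test does not bear on the choice of scaling or on spread between animals. No p-value was computed.

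All 6 members were named by rule. Mates, relatives, cell cycle lists and markers came from lists, and the members and lists were chosen with earlier results of these data known. Alternatives were library totals, totals without miR-122, DESeq2 1.42.0 size factors, other expression minimums and rounding each row down.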

Additional observations from a re-analysis of the deposited data

How the results depend on the processing

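Scaling moved all log2 ratios of a pair together. The family sum had 0.89, 0.67 and 0.22 on library totals, 0.72, 0.62 and 0.10 on totals without miR-122 and 0.33, 0.24 and 0.0823 with DESeq2 size factors, for Enshi black over Large White, wild boar over Large White and Enshi black over wild boar. Members at least 2-fold higher than the Large White rose from 1 to 2 in both pairs on library totals and on totals without miR-122. Over all miRNAs that share rose as well, from 2.88% to 27.4% and 17.8% for the Enshi black. For the wild boar it rose from 11.5% to 21.6% and 20.7%. The member lower in Enshi black than in wild boar, miR-497, was no longer counted on library totals (0 members). The share of all miRNAs lower in that pair fell from 6.25% to 3.37%. No member at least 2-fold apart with TMM changed direction under any scaling tried. Setting miR-15a and miR-15b together against all miR-16, in place of each precursor row, gave 0.468, 0.593 and 0.470 reads per miR-16 read, in the order of libraries used throughout. These values lay outside the intervals of all 6 balances per precursor row. That outcome was fixed, since a pooled ratio lies between the 2 ratios it pools, and these were far apart in each library. Exchanging the 2 miR-16 precursors, an alternative chosen after seeing the data, moved none of the 6 balances beyond its interval. It could hardly do so, since the miR-16 rows differ by at most 0.376% of the miR-16 reads. Rounding rows down, other expression minimums and a wider family denominator moved no value given for the members beyond its interval. These alternatives could hardly do so either. The minimum only picks which miRNAs are compared and cannot change a member's ratio. The wider denominator added only miR-503 and miR-424-3p, which have few reads beside the family. No library could be left out, since each breed has 1. No paired analysis was possible because the labels give no replicate numbers and each breed has 1 library. Depth limits the values of miR-503 and miR-424-3p, which rest on at most 274 and 96 reads in a library. It also limits those of miR-450a, miR-450c-5p and miR-20b, with at most 321, 445 and 196 reads.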
